A study of Mus musculus with 12 samples.

Results

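Livers of XX mice that lack a working Cyp2e1 gene were compared with livers of XX wild type mice, across all genes with enough counts to be tested. The comparison took the 6 libraries labelled female, 3 knockout and 3 wild type, out of 12 libraries in the series, and 14003 of the 56748 genes listed were tested. Knockout mice were of the 129/Sv-Cyp2e1tm1Gonz/J line, which carries a targeted Cyp2e1 allele, and wild type mice were of the 129S1/SvImJ line, so each difference below is also a difference between lines. All were 16 weeks old and were kept on normal chow in shared cages, with no treatment named. The other 6 libraries came from male mice of the same lines and age, and serve here for the sex comparison. The samples are labelled as biological replicates with no mouse named, so the p-values measure the spread between these samples.

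CYP2E1 is a cytochrome P450 of the endoplasmic reticulum, made mainly by hepatocytes around the central vein. It oxidises ethanol, acetone, acetaminophen and other small molecules, and it releases reactive oxygen while doing so. Its substrates include ketone bodies and fatty acids, and its level in liver is known to go up in fasting and in diabetes.

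The 6 female libraries held 16630424 to 25082532 counts, and the 12 libraries 15167730 to 25082532. Levels are given as CPM, counts scaled to a common library size, after TMM scaling. The 15 hepatocyte markers checked summed to between 118000 and 150000 CPM in wild type and between 137000 and 143000 CPM in knockout livers and none of them was at 0. In bulk tissue, fewer cells of a type and less RNA per cell cannot be told apart. Mitochondrially encoded RNA took 2.47%, 3.16% and 7.31% of counts in the wild type livers and 6.34%, 3.95% and 3.50% in the knockout livers. Ribosomal RNA took 1.20%, 1.72% and 1.23% in wild type and 0.768%, 0.874% and 1.10% in knockout, so the groups did not overlap in it.

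The female libraries also differed in how a gene's level moved with its length. This length slope, the change in log2 CPM relative to the mean of all libraries for each doubling of gene length, was -0.143, -0.229 and -0.199 in the wild type livers and 0.084, 0.288 and 0.188 in the knockout livers. Every knockout library lay above every wild type library (difference 0.377, exact permutation test, two-sided, p = 0.1, and no smaller p is possible with 3 against 3). In males the groups overlapped (difference 0.053, exact permutation test, two-sided p = 0.8). Tested genes were cut into 10 bins of length. Over the bin of the shortest (57 to 1265 bases) the median female log2 fold change was -0.84, and over the bin of the longest (9570 to 123179 bases) it was 0.59. Of the shortest genes 40% were called lower and 2.07% higher, and of the longest 5.14% were called lower and 39.9% higher. In the female libraries length slope and genotype go together, so their parts in a change cannot be told apart by these libraries alone.

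**Figure D1:**
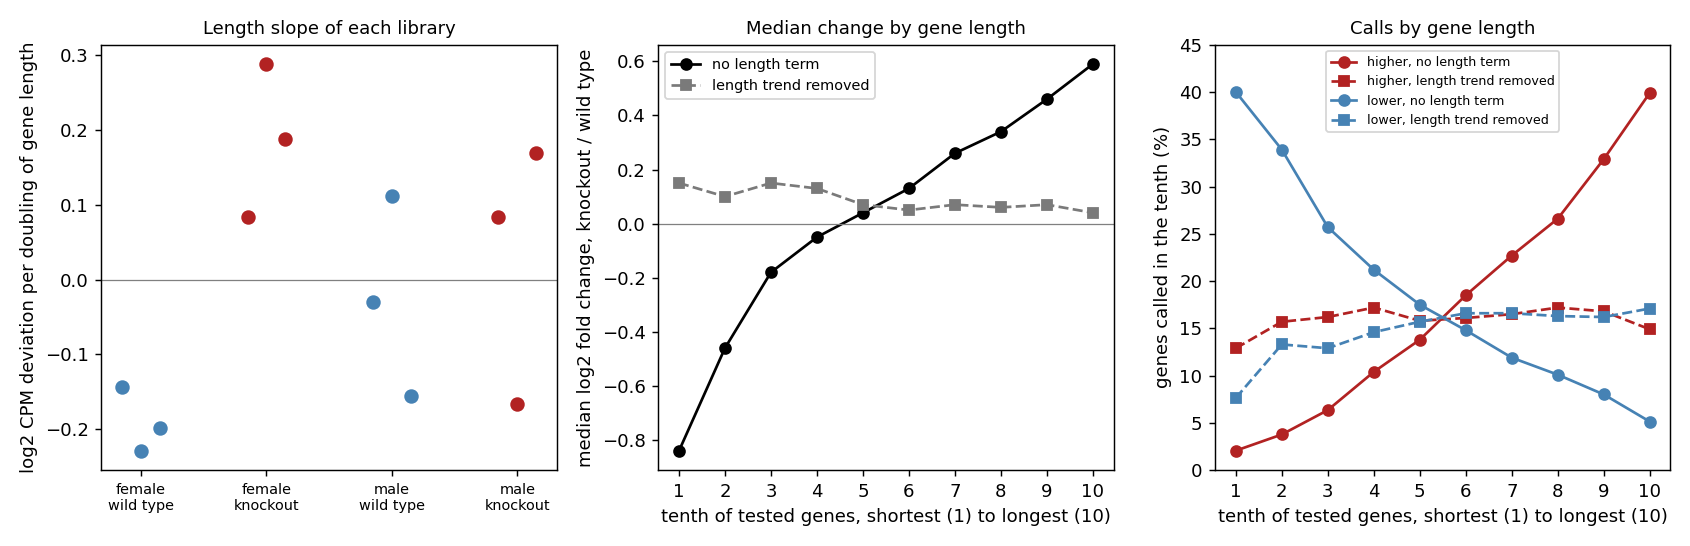
Left, the length slope of each of the 12 libraries (points, log2 CPM deviation per doubling of gene length) by group. Middle and right, the median female log2 fold change and the share of genes called higher or lower in each of 10 bins of gene length, with no length term (solid) and with the length trend removed (dashed). The wild type females all lie below 0 and the knockout females all above, and the medians run from -0.84 to 0.59 with no length term and from 0.04 to 0.15 once the trend is removed.

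Each result was therefore read in 3 fits of edgeR's quasi-likelihood test, with a gene called at a Benjamini-Hochberg adjusted p under 0.05. With no length term 5116 genes (36.5% of those tested) were called, 2479 higher in the knockout (17.7%) and 2637 lower (18.8%). With each library's smooth trend on gene length removed 4289 (30.6%) were called, 2232 higher (15.9%) and 2057 lower (14.7%). Both fits called 3245 genes (23.2%) in the same direction, and 1871 genes were called only with no length term. The counts of each gene list given below are to be read beside each fit's shares over all genes. With the length slope of each library as a covariate 10 genes (0.0714%) were called, Cyp2e1, Cyp2a5, Tsku, Depp1, Nudt9, H2-Ab1, Nlrc5, Timd4, Gm10503 and Mt2, and 1748 of the 5116 turned sign. Cyp2a5, H2-Ab1, Timd4 and Mt2 are outside the rule for named genes and are listed because this fit called them. A gene is said below to have risen or fallen when both of the first fits called it in that direction, and fold changes are log2 values from the fit with no length term, ± a standard error, unless the other fit is named. The stable set of 2198 genes (15.7%), 1049 higher (7.49%) and 1149 lower (8.21%), also kept its sign with the covariate and had no overlap between the 3 wild type and 3 knockout levels. The name stands for these conditions only. A kept sign admits values near 0 with the covariate, such as -0.07 for Rps12. With the trend removed, only 38 of the set were called in every fit that left out 1 female library. Levels of the groups did not overlap in 7668 genes (54.8%), and in 5023 of the 5116 called with no length term. A remark below that the groups of a called gene were apart is therefore a description and no further support.

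The number of calls depended on 2 libraries, more than the size of the changes did. Without wild type replicate 2 the count fell from 5116 to 5 genes and without knockout replicate 2 to 4, while 5349 and 5433 genes kept an unadjusted p under 0.05, against 6797 in the full fit. All 5116 genes kept their sign in both of these fits, which is no check of them. The groups did not overlap in 5023 of the 5116, so leaving out 1 library could hardly turn their sign. The median log2 fold change of the 5116 was 0.943 and 0.936 times that of the full fit. Of these genes 4046 and 4181 had an adjusted p under 0.1. Leaving out any other female library left 2909 to 4227 calls. With the length trend removed the counts were 45 without wild type replicate 2, 158 without knockout replicate 2 and 1872 to 3079 for the others. Cyp2e1, Nlrc5, Gm6135 and Gm10503 were the genes called in all 6 of these fits with no length term (0.0286%). With the trend removed 40 genes (0.286%, 21 higher and 19 lower) were called in all 6, and 38 of them were also called with no length term. These 40 are described first. With no length term, the fit whose fold changes and p-values are printed, 4 of the 40 were called in all 6 fits, 32 in 4, 1 (Prex2) in 2 and 3 (Top1, C1qc and Gm45091) in 0. Every other call named below was lost without at least 1 library in both sets of fits.

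Cyp2e1 (ENSMUSG00000025479, chromosome 7, 140343652 to 140354900 of mm39, the build of the deposited table) stood at 6213, 6349 and 7076 CPM in the wild type livers and at 230, 323 and 278 CPM in the knockout livers. The knockout livers were all far below, and the log2 fold change was -4.56 ± 0.20 (adjusted p = 8.87e-08), -4.15 with the length trend removed and -4.60 with the slope as a covariate. By mean level the gene ranked 13 of the genes tested in wild type and 430 in knockout livers. The labels do not say which bases the allele lacks, so the counts that remain were not placed on the gene.

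**Figure D2:**
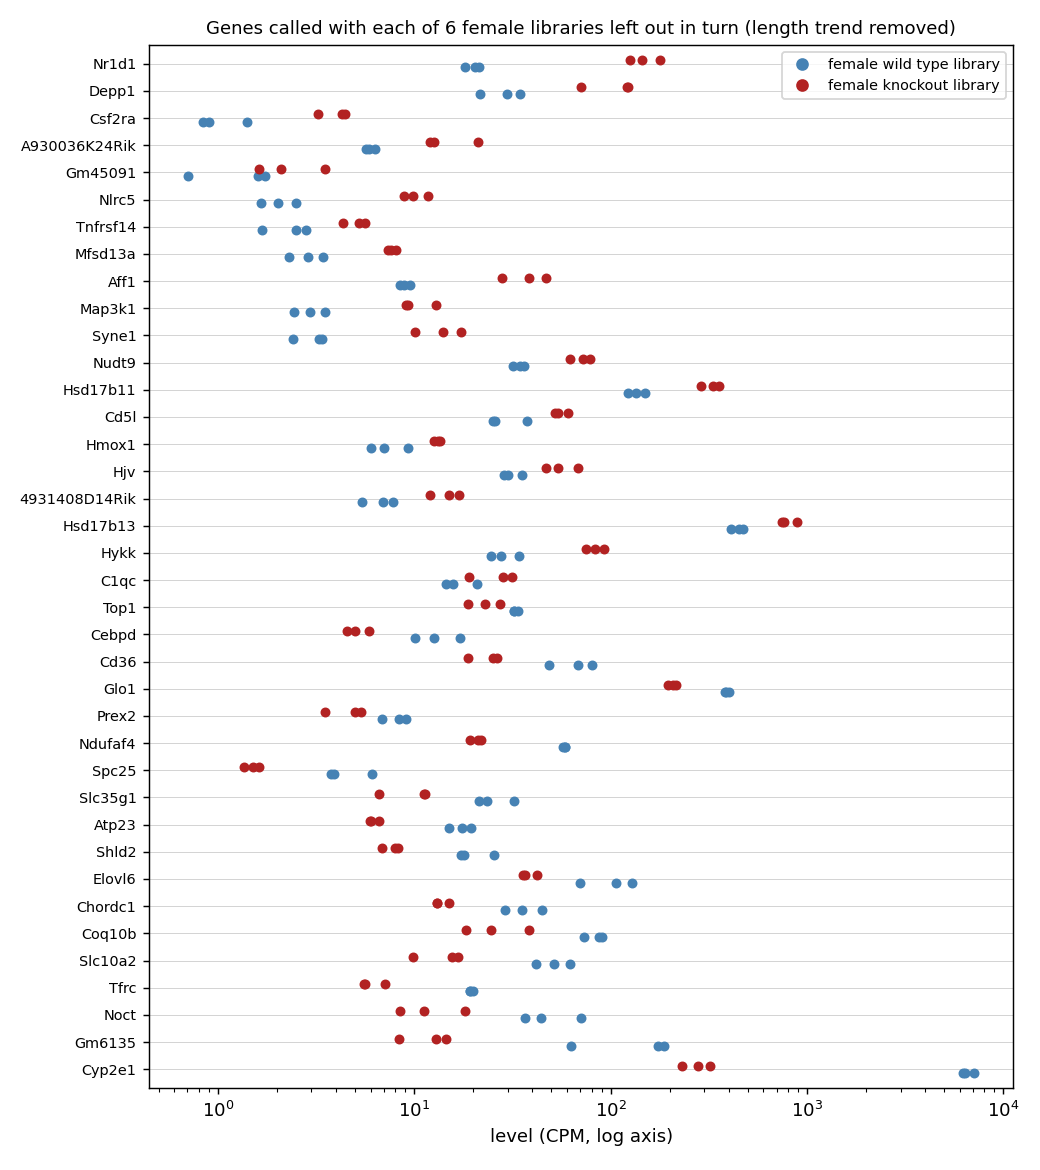
Level of each gene (rows) in the 6 female libraries (points, CPM on a log axis), for 38 of the 40 genes called with each female library left out in turn and the length trend removed, ordered by fold change. The 2 genes with a library at 0 counts are left out. Wild type and knockout points are apart in every row but those of C1qc and Gm45091.

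Among the 40 were 2 genes of the circadian clock and its output, which moved in opposite directions. Nr1d1, the nuclear receptor REV-ERB alpha that represses the clock's activators, was at 18.2, 21.4 and 20.5 CPM in wild type and at 144, 178 and 126 CPM in knockout livers (2.90 ± 0.45, adjusted p = 0.0132). Noct (nocturnin), a rhythmic phosphatase of NADPH, was at 70.5, 44.4 and 36.5 CPM in wild type and at 8.49, 11.2 and 18.1 CPM in knockout (-2.0 ± 0.41, adjusted p = 0.0139). Neither gene's groups overlapped. Of 26 clock genes tested 10 were higher and 5 lower with no length term, beside 17.7% and 18.8% of all genes. With the trend removed 6 were higher and 5 lower, beside 15.9% and 14.7%. The medians in these fits were 0.43 and 0.23, beside 0.05 and 0.09 for all genes. The repressor Cry2 (1.44 ± 0.31) and the output factor Dbp (1.19 ± 0.29, chosen after its values were seen) rose, and Nampt, the rate-limiting enzyme of NAD salvage (-1.66 ± 0.31), fell. With the slope as a covariate the list's median was -0.27, Nr1d1 stood at 1.20 and Noct at -2.39, neither of them called. The labels used here give no time of day for the tissue, so its part in these genes was not tested.

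A stretch of chromosome 5 (103840240 to 104213245, 373 kb) held 4 of the 40 genes among the 5 tested genes in it. The stretch was chosen after the values were seen. Hsd17b13, a lipid droplet dehydrogenase of hepatocytes, was at 450, 470 and 409 CPM in wild type and at 889, 747 and 764 CPM in knockout (0.85 ± 0.20). Its neighbour and homologue Hsd17b11, also a lipid droplet protein, went from 151, 123 and 135 CPM to 290, 334 and 357 CPM (1.26 ± 0.16). Nudt9, which hydrolyses ADP-ribose, went from 34.6, 31.7 and 36.2 CPM to 78.4, 62.5 and 72.3 CPM (1.06 ± 0.17). All 3 genes had every knockout liver above every wild type liver, and the adjusted p-values were 0.0142, 0.00867 and 0.0132. Aff1, a scaffold of the super elongation complex of transcription, rose too, from 8.88, 9.50 and 8.49 CPM to 27.9, 47.2 and 38.4 CPM (2.08 ± 0.30). The remaining gene, Klhl8, was at 0.82 and did not pass (adjusted p = 0.0611). In males the 5 genes stood at 0.64, 0.74, 0.79, 0.80 and 0.90 in the order named, with none called.

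On chromosome 17 the pair Glo1 and Gm10503, whose ends lie 293 kb apart, both fell. Glo1 (30803910 to 30845845), which clears methylglyoxal with glutathione, was at 402, 388 and 384 CPM in wild type and at 196, 208 and 215 CPM in knockout livers (-0.92 ± 0.15, adjusted p = 0.0132). The lncRNA Gm10503 (31139312 to 31182194) had 281 counts over the wild type livers and 0 over the knockout livers; with 3 counts over the group taken as the most that 0 allows, it was at least 128-fold lower, a bound on counting error only. Both groups were apart in both genes, and both genes were also called in males (Glo1 -1.08, adjusted p = 0.0128).

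Other lipid genes among the 40, Elovl6 and Cd36, fell. Elovl6, the elongase that turns palmitate into stearate, was at 128, 106 and 70.3 CPM in wild type and at 36.8, 36.0 and 42.2 CPM in knockout livers (-1.41 ± 0.23, adjusted p = 0.0132). Cd36, a fatty acid transporter and a target of PPAR alpha and PPAR gamma, was at 80.8, 68.2 and 48.8 CPM against 18.8, 26.4 and 25.1 CPM (-1.49 ± 0.21, adjusted p = 0.01). In both genes all knockout livers lay below all wild type livers. Thrsp (Spot 14), a nuclear protein that promotes lipogenesis, fell from 2787, 2956 and 2430 CPM to 343, 654 and 836 CPM (-2.16 ± 0.38), and Me1, the malic enzyme that makes NADPH for lipogenesis, fell by less (-1.03 ± 0.27). Of 30 genes of lipogenesis and triglyceride storage 2 were higher and 6 lower with no length term. With the trend removed 5 were higher and 3 lower. The medians in these fits were 0.19 and 0.14, so the list as a whole did not lie low in them. With the slope as a covariate its median was -0.35, beside -0.02 for all genes, and 23 of the 30 lay below 0. Of 43 PPAR alpha targets and genes of fatty acid oxidation 5 were higher and 15 lower, beside 17.7% and 18.8% of all genes. With the trend removed 6 were higher and 11 lower, beside 15.9% and 14.7%. The carnitine carrier Slc25a20 (-0.77 ± 0.19) fell and the ketone body enzyme Bdh1 (0.75 ± 0.19) rose.

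Of 27 genes of cholesterol synthesis and uptake 6 were higher and 6 lower, near the 17.7% and 18.8% of all genes, and 5 and 3 with the trend removed. Their median was 0.05, that of all genes. The sterol reductase Tm7sf2 (-0.92 ± 0.21) fell, while Srebf2, the transcription factor that drives these enzymes, rose (1.34 ± 0.30).

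Bile acid genes included 1 of the 40. Slc10a2, the apical sodium-dependent bile acid transporter, best known from ileum and bile ducts, was at 41.5, 62.1 and 51.3 CPM in wild type and at 9.87, 16.7 and 15.6 CPM in knockout livers (-1.88 ± 0.27, adjusted p = 0.01). The groups were apart, and the 13 markers of bile duct cells summed to 59.6 to 65.6 CPM in wild type and 51.7 to 68.1 CPM in knockout, which overlap. Cyp7a1, which sets the rate of bile acid synthesis from cholesterol, was at 829, 545 and 530 CPM against 123, 159 and 232 CPM (-1.89 ± 0.35), and Cyp7b1, the oxysterol hydroxylase of the alternative route, also fell (-1.11 ± 0.24). The sterol exporter Abcg8 (1.11 ± 0.28) and Klb, the co-receptor for FGF15 and FGF21 (1.23 ± 0.30), rose. Of 30 bile acid genes on the list 7 were higher and 8 lower, beside 17.7% and 18.8% of all genes. With the trend removed 9 were higher and 6 lower, beside 15.9% and 14.7%. Abcg8 stood at 0.02 and Klb at 0.09 with the slope as a covariate, where Cyp7a1 stood at -1.16 and Slc10a2 at -1.51.

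Iron and heme genes held 3 of the 40. Tfrc, the receptor that takes up transferrin-bound iron, was at 20, 19.3 and 19.3 CPM in wild type and at 7.07, 5.60 and 5.58 CPM in knockout livers (-1.68 ± 0.25, adjusted p = 0.01). Hjv, the BMP co-receptor that drives hepcidin, was at 30.1, 28.6 and 35.5 CPM against 68.6, 54.3 and 47.0 CPM (0.85 ± 0.18), and Hmox1, which breaks down heme, was at 6.99, 9.31 and 6.05 CPM against 13.3, 13.6 and 12.6 CPM (0.82 ± 0.19). The groups were apart in all 3 genes. Smad6, an inhibitor of BMP signalling that BMP signals induce, rose (1.46 ± 0.29), and Blvrb, a biliverdin reductase, fell (-1.31 ± 0.26). Alas1, the first enzyme of heme synthesis, was at 1060, 585 and 560 CPM in wild type and spread from 80.4 to 189 and 314 CPM in knockout livers (-1.92 ± 0.60, adjusted p = 0.0267; chosen after its values were seen). Without knockout replicate 1, the lowest, Alas1 stood at -1.54 (adjusted p = 0.0791). Of 30 genes of heme and iron 5 were higher and 8 lower, beside 17.7% and 18.8% of all genes. With the trend removed 6 were higher and 8 lower, beside 15.9% and 14.7%.

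Some genes of MHC class I presentation and of immune cells rose. Nlrc5, the transactivator of MHC class I genes, was at 2.03, 1.66 and 2.51 CPM in wild type and at 11.8, 9.91 and 8.88 CPM in knockout livers (2.30 ± 0.24, adjusted p = 0.001). Its call held in all 12 fits that left out a female library and with the slope as a covariate (2.23, adjusted p = 0.0371). The peptide transporter genes Tap1, from 13.8, 16.5 and 12.6 CPM to 33.1, 23.2 and 27.5 CPM (0.97 ± 0.20), and Tap2 (0.95 ± 0.27) rose, as did the class I gene H2-Q6 (2.31 ± 0.56). All 3 had their groups apart. Of 25 genes on the list 6 were higher and 2 lower with no length term, beside 17.7% and 18.8% of all genes. With the trend removed 10 were higher and 0 lower, beside 15.9% and 14.7%. The list's medians in these fits were -0.14 and 0.05, below the 0.05 and 0.09 of all genes. Reads of H2 genes can be shared between near-identical copies, so their split is uncertain.

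Among macrophage genes Cd5l, a protein secreted by Kupffer cells, was at 25.1, 37.6 and 25.7 CPM in wild type and at 53.7, 52.1 and 61.1 CPM in knockout livers (0.92 ± 0.21, adjusted p = 0.014). C1qc, a chain of complement C1q made by macrophages, was one of the 40 with the trend removed (1.08, adjusted p = 0.0106), but with no length term it did not pass (0.63 ± 0.24, adjusted p = 0.0534) and its groups overlapped. The growth factor receptor Csf1r was at 11.4, 11.9 and 8.17 CPM against 30.4, 30.1 and 32.4 CPM (1.56 ± 0.28), and the scavenger receptors Marco (2.23 ± 0.53) and Cd68 (0.84 ± 0.25) rose. Of 18 Kupffer cell and macrophage markers tested 4 were higher and 0 lower, beside 17.7% and 18.8% of all genes. With the trend removed 8 were higher and 0 lower, beside 15.9% and 14.7%. The median was 0.45, 0.74 with the trend removed and 1.12 with the slope as a covariate. Over all genes it was 0.05, 0.09 and -0.02. The summed level of the 19 markers overlapped between the groups, at 289 to 438 CPM in wild type and 319 to 412 CPM in knockout.

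Lymphocyte markers were low. Cd79a, a subunit of the B cell receptor, was at 0.236, 0.255 and 0.643 CPM in wild type and at 4.05, 1.11 and 1.58 CPM in knockout livers (2.58 ± 0.56, adjusted p = 0.014). The immunoglobulin heavy chain Ighm was at 4.73, 5.87 and 4.83 CPM against 21.1, 8.01 and 6.02 CPM (1.19 ± 0.41). Knockout replicate 1 was the highest for both. Without it Ighm stood at 0.45 (adjusted p = 0.278) and Cd79a at 1.85 (adjusted p = 0.0261). Cd74, the MHC class II invariant chain, was at 169 CPM in that library and at 59.7 and 104 CPM in the other knockout livers, against 46.4 to 61.4 CPM in wild type, and its groups overlapped. The 19 lymphocyte markers summed to 76.9 to 82.8 CPM in wild type and 82.4 to 243 CPM in knockout. Cd74 alone made up most of this sum in the wild type livers and in knockout replicate 1. Of 11 lymphocyte markers tested 4 were higher and 0 lower, beside 17.7% and 18.8% of all genes. With the trend removed 6 were higher and 0 lower, beside 15.9% and 14.7%. The medians in the 3 fits were 1.03, 1.53 and 2.5. Neutrophil markers summed to 1.7 to 3.67 CPM in wild type and 1.3 to 3.91 CPM in knockout, with Ly6g at 0 in all 6 female libraries. The part of cell numbers in these changes was not tested.

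The other protein-coding genes of the 40 fall into several roles. Depp1, a FOXO-responsive regulator of autophagy, was at 21.6, 29.6 and 34.6 CPM in wild type and at 122, 123 and 71.1 CPM in knockout livers (1.88 ± 0.27, adjusted p = 0.01), and it was also called with the slope as a covariate (2.36, adjusted p = 0.0371). Coq10b, which binds coenzyme Q, went from 90.0, 73.6 and 87.7 CPM to 18.4, 24.5 and 38.6 CPM (-1.63 ± 0.28). Ndufaf4, an assembly factor of respiratory complex I, went from 58.5, 57.1 and 58.4 CPM to 21.9, 19.3 and 21.2 CPM (-1.48 ± 0.22). The groups were apart in all 3. Also lower were the transcription factor Cebpd (-1.37 ± 0.23), the mitochondrial protease Atp23 (-1.48 ± 0.23), the DNA repair factor Shld2 (-1.39 ± 0.23), the kinetochore protein Spc25 (-1.62 ± 0.28), the membrane transporter family member Slc35g1 (-1.40 ± 0.25), the Rac activator Prex2 (-0.81 ± 0.23) and DNA topoisomerase Top1 (-0.51 ± 0.18). Also higher were the nuclear envelope protein Syne1 (2.19 ± 0.29), the kinase Map3k1 (1.81 ± 0.26), the GM-CSF receptor chain Csf2ra (1.93 ± 0.30), the TNF receptor family member Tnfrsf14 (1.11 ± 0.27), Mfsd13a (1.42 ± 0.26) and the hydroxylysine kinase Hykk (1.53 ± 0.26). None of these 13 had overlapping groups. The lncRNA Gm6135 was at 62.9, 188 and 174 CPM against 13, 8.33 and 14.5 CPM (-3.56 ± 0.41, adjusted p = 0.00249).

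Chaperone genes had the lowest median of the 53 gene lists once the length trend was removed, and most of the called members fell in both fits. Heat shock proteins of the HSP70 and HSP90 families fold and refold proteins in the cytosol, J-domain proteins hand them their clients, and the CCT ring folds actin and tubulin. Many of the stress-inducible members are driven by the transcription factor HSF1 through repeats of the heat shock element. The promoters of 4 members that fell are printed, from 250 bases before to 50 bases after the start site. Capitals mark each GAANNTTC, the inverted pair of heat shock element units, which reads the same on both strands, so a match covers both. Only promoters that hold this motif were taken, so its presence in all 4 follows from the choice. For Hsph1 and Dnaja1, with 2 and 3 promoters listed, the first that holds it is printed. Hspd1, which did not fall, also holds the motif in a listed promoter. The sequences are RefSeq's for GRCm38.p6 and their coordinates are of that build, not of the mm39 table. In order they are chr9:18292017-18292316 (plus strand), chr5:149636287-149636586 (minus strand), chr1:55087898-55088197 (plus strand) and chr4:40722218-40722517 (plus strand).
Chordc1: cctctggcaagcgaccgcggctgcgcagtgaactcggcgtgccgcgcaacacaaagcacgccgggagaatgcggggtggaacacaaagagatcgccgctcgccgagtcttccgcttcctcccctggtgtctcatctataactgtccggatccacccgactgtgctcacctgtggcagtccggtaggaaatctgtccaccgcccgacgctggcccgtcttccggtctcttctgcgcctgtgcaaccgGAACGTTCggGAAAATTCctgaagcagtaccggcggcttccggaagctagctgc
Hsph1: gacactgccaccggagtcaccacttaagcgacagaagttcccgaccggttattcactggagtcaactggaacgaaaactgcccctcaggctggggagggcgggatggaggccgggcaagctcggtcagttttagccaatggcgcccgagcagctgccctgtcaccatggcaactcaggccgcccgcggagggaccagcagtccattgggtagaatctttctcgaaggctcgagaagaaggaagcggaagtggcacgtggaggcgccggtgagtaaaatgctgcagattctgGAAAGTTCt
Hspe1: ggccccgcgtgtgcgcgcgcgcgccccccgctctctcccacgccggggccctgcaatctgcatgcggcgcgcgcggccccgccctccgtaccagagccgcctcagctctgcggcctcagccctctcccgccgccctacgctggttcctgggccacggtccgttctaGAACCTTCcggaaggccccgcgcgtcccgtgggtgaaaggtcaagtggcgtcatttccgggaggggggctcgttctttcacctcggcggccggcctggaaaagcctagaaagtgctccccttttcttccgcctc
Dnaja1: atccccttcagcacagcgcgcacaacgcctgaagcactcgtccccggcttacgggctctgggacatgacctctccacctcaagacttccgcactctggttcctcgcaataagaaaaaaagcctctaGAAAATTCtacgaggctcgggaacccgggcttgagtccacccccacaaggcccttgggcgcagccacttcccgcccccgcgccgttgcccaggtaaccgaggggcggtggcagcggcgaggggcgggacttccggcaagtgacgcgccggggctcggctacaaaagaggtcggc

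Chordc1, a co-chaperone of HSP90 and one of the 40, was at 44.8, 35.2 and 29.1 CPM in wild type and at 15, 13 and 13.1 CPM in knockout livers (-1.41 ± 0.23, adjusted p = 0.0132). Hsp90aa1, the inducible HSP90, went from 226, 145 and 91.8 CPM to 54.4, 50.8 and 60.2 CPM (-1.48 ± 0.28), and the J-domain protein Dnaja1 from 302, 238 and 223 CPM to 133, 127 and 139 CPM (-0.94 ± 0.18). In each gene all knockout livers lay below all wild type livers and close to each other, while wild type replicate 1 was the highest. Cct5, a subunit of the CCT ring, fell from 255, 300 and 240 CPM to 132, 106 and 130 CPM (-1.11 ± 0.22). The HSP70 co-chaperone Hsph1 (-1.11 ± 0.30) and the constitutive HSP70 Hspa8 (-0.94 ± 0.21) fell as well, both chosen after their values were seen. The regulator Hsf1, chosen likewise, was at 0.61 ± 0.28 and did not pass (adjusted p = 0.106).

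Of 30 chaperone genes tested 20 were lower and 0 higher with no length term, beside 18.8% of all genes lower, and 17 were lower and 0 higher with the trend removed, beside 14.7%. The median was -0.78, -0.95 with the trend removed and -0.33 with the slope as a covariate. With the covariate 30 of the 30 lay below 0, beside 7338 of all 14003 genes, whose median was -0.02. Other lists lay as low in that fit. Flavin monooxygenases and carboxylesterases stood at -0.39 (26 of 27 below 0). Glycolysis, gluconeogenesis and insulin signalling stood at -0.40 (27 of 33 below 0). In the stable set were 14 of the 30 chaperone genes. Some genes have several promoters listed. The motif stood in 7.86% of the 32851 mouse promoters and in 12 of the 31 of chaperone genes. By gene, it stood in at least 1 promoter for 9.04% of the 27025 genes with a promoter listed and for 11 of the 23 chaperone genes, of which 8 were called lower with no length term, against 8 of the 12 without it. The mitochondrial pair of chaperonins parted. Hspe1, which caps the ring, went from 352, 484 and 442 CPM to 139, 73.5 and 106 CPM (-2.0 ± 0.40, adjusted p = 0.0139), while Hspd1, the ring itself, was at 371, 260 and 294 CPM against 364, 331 and 388 CPM (0.23 ± 0.22, adjusted p = 0.419) and its groups overlapped. Both were chosen after their values were seen. The 2 genes are transcribed away from each other and overlap at their starts on chromosome 1 (Hspd1 55116994 to 55127402, Hspe1 55127291 to 55130466), and their gene lengths are 2642 and 1474 bases. With the trend removed Hspe1 stood at -1.40 and Hspd1 at 0.49, and with the slope as a covariate at -0.36 and -0.30.

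**Figure D3:**
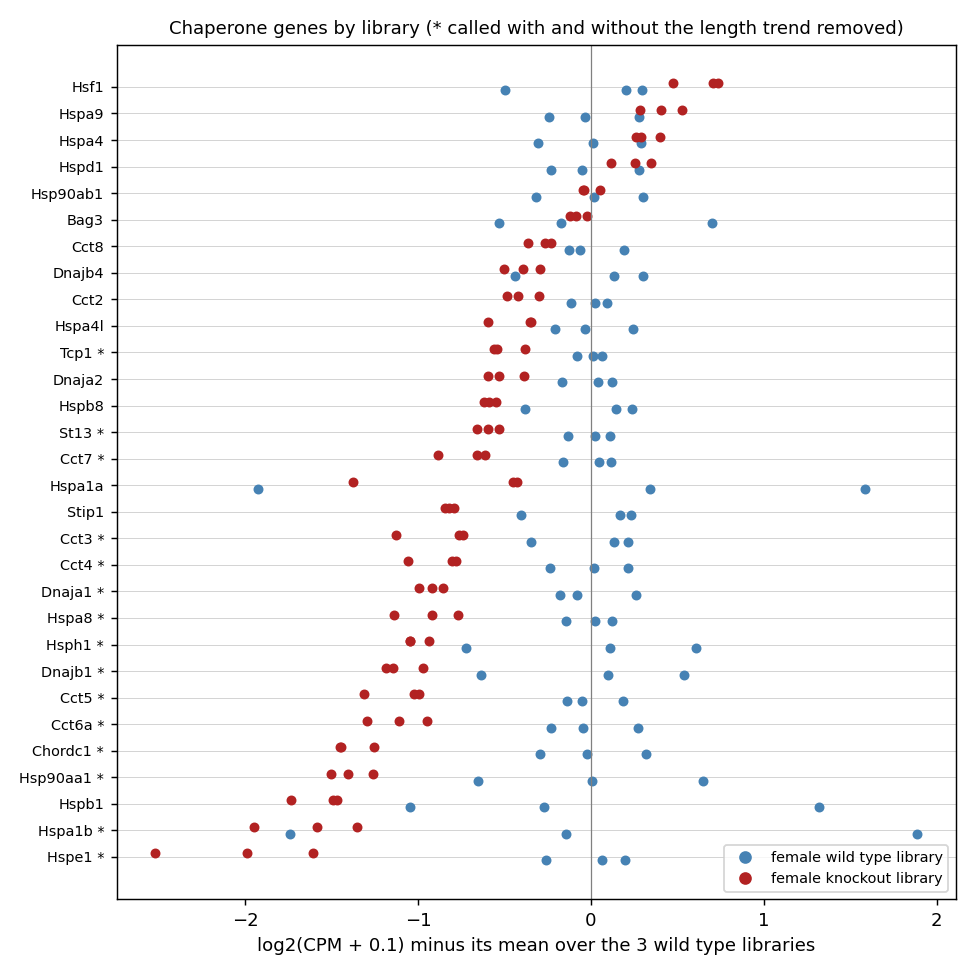
Each of the 30 chaperone genes tested (rows) in the 6 female libraries (points), as log2(CPM + 0.1) minus its mean over the 3 wild type libraries, ordered by the knockout mean. Knockout points lie left of the wild type points in most rows, and in the rows of Hspa4, Hspd1, Hsp90ab1, Bag3, Dnajb4, Hspa1a and Hspa1b the groups overlap.

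Enzymes that conjugate drugs and steroids were lower in part, with fewer calls once the length trend was removed. Of 35 genes of glucuronidation and sulfation 2 were higher and 18 lower with no length term, and 5 and 10 with the trend removed, with medians of -0.57 and -0.23. Sult1d1, a sulfotransferase of catecholamines, was at 476, 649 and 504 CPM in wild type and at 137, 135 and 159 CPM in knockout livers (-1.92 ± 0.35). The hydroxysteroid sulfotransferase Sult2a7 went from 14.3, 12.1 and 16.6 CPM to 0.222, 2.22 and 1.72 CPM (-3.36 ± 0.57), and Ugt2b37, a UDP-glucuronosyltransferase, from 16.4, 57.1 and 29.0 CPM to 4.22, 6.34 and 4.95 CPM (-2.72 ± 0.38). No knockout liver reached a wild type liver in these 3 genes. Of 44 drug and steroid P450s other than Cyp2e1 2 were higher and 15 lower with no length term, and 6 and 5 with the trend removed, where their median moved from -0.21 to 0.03. Cyp3a44 (-1.68 ± 0.33) and Cyp2r1, a vitamin D 25-hydroxylase (-1.30 ± 0.26), fell, and Cyp2u1 rose (2.10 ± 0.34). The carboxylesterase Ces2c (-1.39 ± 0.33) and the paraoxonase Pon2 (-0.95 ± 0.23) fell.

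Among antioxidant enzymes, Nqo1, a quinone reductase and target of Nrf2, was at 21.6, 23.7 and 19.0 CPM in wild type and at 7.03, 7.13 and 7.74 CPM in knockout livers (-1.56 ± 0.24, adjusted p = 0.013), and Cbr1, a carbonyl reductase, at 301, 298 and 251 CPM against 128, 111 and 116 CPM (-1.26 ± 0.19, adjusted p = 0.0101). The groups were far apart in both. With the slope as a covariate they stood at -0.94 and -0.85, and neither was called. Prdx1, a peroxiredoxin, fell with no length term (-1.44 ± 0.30) and with the trend removed (-1.28), and stood at -0.22 with the covariate. Of 31 Nrf2 targets and antioxidant enzymes 4 were higher and 10 lower, beside 17.7% and 18.8% of all genes. With the trend removed 5 were higher and 10 lower, beside 15.9% and 14.7%.

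Of 33 genes of glycolysis, gluconeogenesis and insulin signalling 8 were higher and 5 lower with no length term, of 38 of the urea cycle and amino acid breakdown 5 and 9, and of 26 of methionine and one-carbon metabolism 4 and 6, shares near the 17.7% and 18.8% of all genes. Pfkfb1, which sets the level of fructose 2,6-bisphosphate, was at 36.7, 27.8 and 24.7 CPM in wild type and at 11.3, 14.8 and 15.3 CPM in knockout livers (-1.11 ± 0.21). The insulin receptor substrate Irs2 was at 6.43, 8.29 and 7.66 CPM against 23.3, 29.5 and 24.6 CPM (1.79 ± 0.33). Neither gene had overlapping groups. The urea cycle enzymes Arg1 (-1.06 ± 0.22) and Otc (-0.77 ± 0.20) fell. Cbs, which commits homocysteine to cysteine, rose (1.47 ± 0.34), and Amd1, which feeds polyamine synthesis, fell (-1.01 ± 0.20). Nnmt, which methylates nicotinamide, was at 270, 434 and 262 CPM against 78.8, 31.4 and 68.9 CPM (-2.43 ± 0.45).

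Of 28 genes of pericentral hepatocytes, the zone in which CYP2E1 itself is made, 7 were higher and 5 lower with no length term, beside 17.7% and 18.8% of all genes, and 6 and 1 with the trend removed. Tbx3, a Wnt-dependent transcription factor, was at 14.9, 8.42 and 8.75 CPM in wild type and at 28.7, 46.7 and 29.1 CPM in knockout livers (1.70 ± 0.35), with no overlap, and the Wnt feedback inhibitor Rnf43 (1.10 ± 0.27) and the Wnt effector Tcf7 (1.03 ± 0.31) rose. With the slope as a covariate Tbx3 stood at 0.48, Rnf43 at 0.19 and Tcf7 at 0.08, with none called. The 5 lower members were Cyp2a5, Lect2, Rgn, Lhpp and Rhbg (-1.02 to -0.51), named because they were called, and none of them passed with the trend removed. The periportal cadherin Cdh1 rose as well (1.11 ± 0.28). Of 23 periportal genes 6 were higher and 2 lower, and 7 and 2. With the covariate the medians of the pericentral and periportal lists were -0.32 and -0.30, beside 0.02 and 0.19 with no length term.

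Genes of the growth hormone axis, which sets much of the sex difference of liver, were higher in 9 of 21 and lower in 0 with no length term, and 6 and 2 with the trend removed. Stat5b, the axis's main transcription factor (1.08 ± 0.22), Fgfr2 (1.43 ± 0.33) and Cux2, a female-specific repressor (1.29 ± 0.33), rose. With the slope as a covariate Stat5b stood at 0.27, Fgfr2 at 0.24 and Cux2 at 0.75, with none called. The median of the axis's genes was 0.52 with no length term and 0.08 with the covariate. Major urinary protein genes were lower in 13 of 22 and in 4 of 22 with the trend removed, with medians of -1.71 and -0.91. Mup18 was at 42.6, 692 and 242 CPM in wild type and at 11.3, 16.8 and 24.5 CPM in knockout livers (-4.21 ± 1.07), and Mup16 at 127, 1273 and 220 CPM against 21.6, 48.9 and 59.5 CPM (-3.64 ± 1.03). The wild type livers differed widely among themselves. Mup19 was at 12.0, 3.25 and 153 CPM against 1.16, 2.08 and 1.06 CPM (-5.30 ± 1.55), and without wild type replicate 3 it stood at -2.43 (adjusted p = 0.156). Without wild type replicate 2, the highest for both, Mup16 stood at -2.0 (adjusted p = 0.118) and Mup18 at -3.02 (adjusted p = 0.0635). Mup genes are near-identical, so the split of reads between them is uncertain.

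Plasma proteins were among the most abundant genes called. C3, the central complement protein, was at 5374, 4581 and 5102 CPM in wild type and at 9890, 11150 and 11530 CPM in knockout livers (1.11 ± 0.26), and C4b, an early complement component, also rose (1.08 ± 0.26). The adhesive protein Vtn (0.57 ± 0.20), fibrinogen chain Fga (0.73 ± 0.22) and Itih4 (0.67 ± 0.18) rose. C8g, a small chain of the membrane attack complex, was at 1077, 1585 and 1462 CPM against 554, 396 and 473 CPM (-1.54 ± 0.34). Selenop, the carrier of selenium in plasma, went from 8589, 14130 and 10390 CPM to 3884, 4673 and 5320 CPM (-1.25 ± 0.32). In C3, C8g and Selenop no knockout liver overlapped with wild type. Of 41 complement and coagulation genes 8 were higher and 5 lower, and 16 and 3 with the trend removed. With the slope as a covariate C3 stood at 0.17, C8g at -0.09 and Selenop at -0.17. Of the most abundant genes called lower with no length term, Apoc3, an inhibitor of lipoprotein lipase, fell in both fits (-1.41 and -0.60). The short Apoc1 (-1.55), Fabp1 (-1.25) and the elongation factor Eef1a1 (-0.80) stood at -0.55, -0.08 and -0.49 once the trend was removed, none of them called, and Apoc3, Apoc1, Fabp1 and Eef1a1 turned to 0.01, 0.08, 0.21 and 0.03 with the covariate.

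Ribosomal proteins, the nuclear-encoded respiratory chain, ATP synthase and the proteasome, mostly short genes, had large shares of their members called lower, with medians nearer to 0 in the fits that take length into account. Of 77 cytosolic ribosomal protein genes 71 were lower and 0 higher with no length term, 52 lower and 1 higher with the trend removed, and 27 were in the stable set. Their median went from -1.34 to -0.86 and to -0.01 with the slope as a covariate. Rps18, of the small ribosomal subunit, was at 797, 1186 and 1355 CPM in wild type and at 312, 221 and 269 CPM in knockout livers (-2.06 ± 0.46, and -0.11 with the covariate). Of 77 mitochondrial ribosomal protein genes 62 were lower and then 42, with a median of -1.04, -0.61 and 0.00 in the 3 fits. Complex I (30 and 15 of 36 lower), complexes II to IV (24 and 16 of 26) and ATP synthase (14 and 13 of 17) had medians of -1.15, -1.18 and -1.33 with no length term and of -0.07, -0.08 and -0.18 with the covariate. Cox7b of complex IV (-1.77 ± 0.39) and Atp5pb of ATP synthase (-1.33 ± 0.28) fell. Of the 13 mitochondrially encoded genes 1 was lower with no length term and 1 higher with the trend removed, with medians of -0.13, 0.59 and -0.04 in the 3 fits. Of 41 proteasome subunits 29 and then 20 were lower, among them Psma3 (-1.48 ± 0.33).

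Large chromatin regulators, encoded by long genes, moved the other way. Of 44 genes 38 were higher and 0 lower with no length term, 24 were higher and 1 lower with the trend removed, and the median went from 1.31 to 0.80 and to -0.04 with the covariate. The Mediator subunit Med13, from 8.65, 7.08 and 6.95 CPM to 14, 17.5 and 15.8 CPM (1.06 ± 0.21), and the 5-methylcytosine oxidase Tet3, from 3.88, 3.51 and 6.56 CPM to 18.5, 22.6 and 16.7 CPM (2.05 ± 0.40), rose, and their groups were apart. Ep400, the ATPase of a histone exchange complex, rose too (1.38 ± 0.31). With the covariate Med13 stood at 0.40, Tet3 at 0.69 and Ep400 at 0.12.

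**Figure D4:**
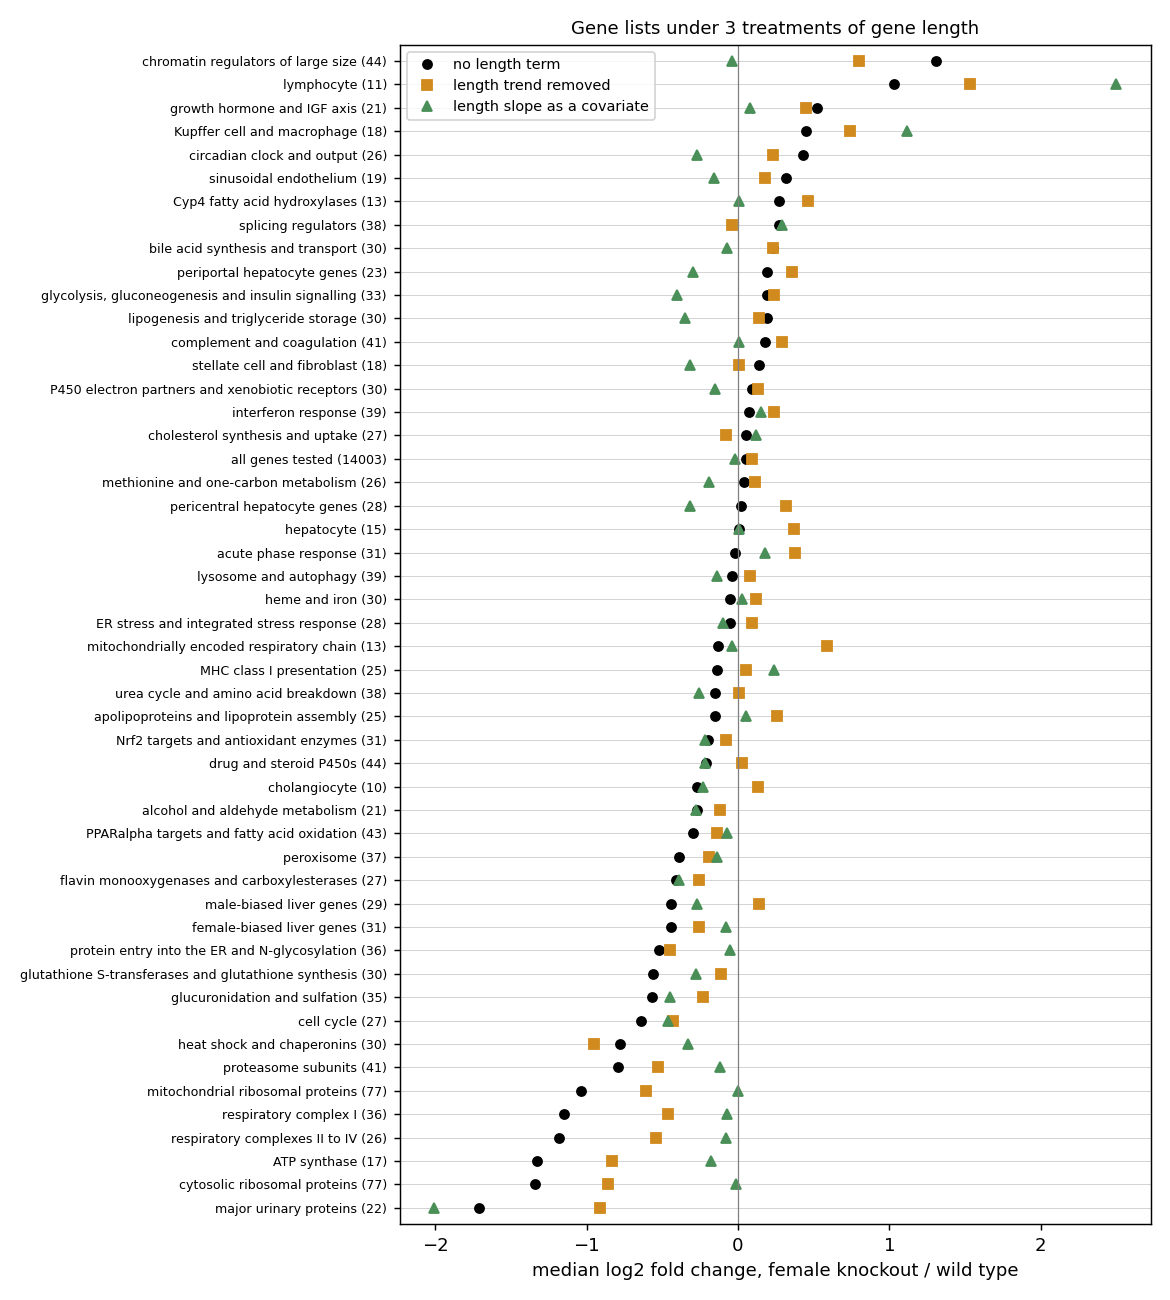
Median female log2 fold change of each gene list with 10 or more members tested (rows, number tested in brackets), with no length term (circles), with the length trend removed (squares) and with each library's length slope as a covariate (triangles). The ribosomal, respiratory chain and chromatin lists lie far from 0 with no length term and near 0 with the covariate. The chaperone list goes from -0.78 to -0.33 with the covariate. In that fit the cell cycle list stands at -0.46 and the list of glucuronidation and sulfation at -0.45. The macrophage list stands at 1.12, the lymphocyte list at 2.5 and the major urinary proteins at -2.01.

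Cell cycle genes were few and low. Of 27 tested 7 were lower and 0 higher, and 8 and 0 with the trend removed, with medians of -0.64, -0.43 and -0.46 in the 3 fits. The ribonucleotide reductase subunit Rrm2 was at 5.91, 4.21 and 2.77 CPM in wild type and at 1.20, 1.57 and 1.32 CPM in knockout livers (-1.66 ± 0.37), thymidylate synthase Tyms at 13.2, 14.2 and 11.1 CPM against 5.78, 5.51 and 7.08 CPM (-1.07 ± 0.20) and thymidine kinase Tk1 at 80.4, 103 and 108 CPM against 44.2, 54.2 and 47.2 CPM (-1.0 ± 0.24). The knockout livers were lower in each of the 3 genes with no overlap. Of 28 genes of ER stress and the integrated stress response 6 were higher and 4 lower, beside 17.7% and 18.8% of all genes. With the trend removed 4 were higher and 3 lower, beside 15.9% and 14.7%. The transcription factor Atf5 (0.97 ± 0.26) and the pseudokinase Trib3 (1.17 ± 0.33) rose, and the ER J-domain protein Dnajb9 fell (-1.09 ± 0.19).

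Other genes with the largest changes in the stable set came from many roles. By the definition of that set the groups do not overlap in any of them. Among those higher, Srp54b, a copy of the signal recognition particle's GTPase, was at 0.614, 0.957 and 0.515 CPM in wild type and at 5.91, 7.92 and 10.3 CPM in knockout livers (3.53 ± 0.63), and its reads cannot be told with certainty from those of its near-identical copies. The coactivator Ppargc1b went from 0.803, 0.893 and 1.42 CPM to 5.29, 7.64 and 7.30 CPM (2.71 ± 0.53). The immediate early factor Egr1 went from 3.07, 2.81 and 11.4 CPM to 39.1, 19.9 and 21.1 CPM (2.22 ± 0.55). Neat1, the RNA scaffold of paraspeckles, ran from 14.2 to 71.1 CPM in wild type and from 77.9 to 396 CPM in knockout livers (2.33 ± 0.58). Without knockout replicate 1, the highest, Neat1 stood at 0.60 with the trend removed (adjusted p = 0.329). Gse1 (2.60), Grk3 (2.48), Nav2 (2.42), Rab11fip4 (2.34), Ahdc1 (2.31), Myh14 (2.26) and Eps8l2 (2.18) rose too. Among those lower, the adipokine Serpina12 (vaspin) went from 4.87, 25.8 and 17.5 CPM to 1.56, 1.62 and 4.48 CPM (-2.63 ± 0.68). The secreted protein Tsku went from 122, 42.6 and 49.9 CPM to 9.38, 15.3 and 15.2 CPM (-2.42 ± 0.44). Tsku was also called with the slope as a covariate (-3.74, adjusted p = 0.0102). Sec61g (-2.27 ± 0.51) of the protein translocation channel, the matrix protein Dpt (-2.26 ± 0.44), Vmn1r51 (-2.31 ± 0.55), Tex30 (-2.22 ± 0.44) and Rps12 (-2.18 ± 0.51) fell. Sec61g and Rps12 stood at -0.08 and -0.07 with the covariate.

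In males 8 genes were called (0.0571%), with 678 at an unadjusted p under 0.05, and 5 of them were also called in females with no length term, Cyp2e1, Glo1, Fdps, Cyp4a31 and Gm10503. Cyp4a31, a fatty acid hydroxylase, was at 4.77, 3.64 and 4.37 CPM in wild type females and at 13.2, 8.43 and 8.25 CPM in knockout females (1.22 ± 0.28), and stood at 2.48 in males. Of the 40 genes called with each female library left out, 37 had the same sign in males (92.5%), as did 78.2% of all female calls and 65.5% of all genes tested, and 3 of the 40 were called in males. The exceptions in sign were Tfrc, Atp23 and 4931408D14Rik. Tfrc was at -1.68 ± 0.25 in females and 0.63 in males, where the mean went from 18.3 to 28.4 CPM. Slc10a2 stood at -0.12 in males (86.0 and 79.0 CPM), Elovl6 at -0.08 (31.5 and 29.8 CPM), Nr1d1 at 0.59 (42.9 and 64.5 CPM) and Chordc1 at -0.39.

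The difference between the female and the male effect was tested for every gene. No gene was called for it by edgeR's quasi-likelihood test in the main fit, with no length term and with the filter on counts. In that fit 3145 genes had an unadjusted p under 0.05 and the smallest adjusted p was 0.0972, that of Tfrc. Limma voom called 0 and DESeq2 called 218. The same edgeR test called 1451 with no filter and 3 with the slope as a covariate. An effect called in females and not in males is therefore not shown to differ between the sexes by the main fit. The calls of DESeq2 and of edgeR with no filter stand against the main fit in this.

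**Figure D5:**
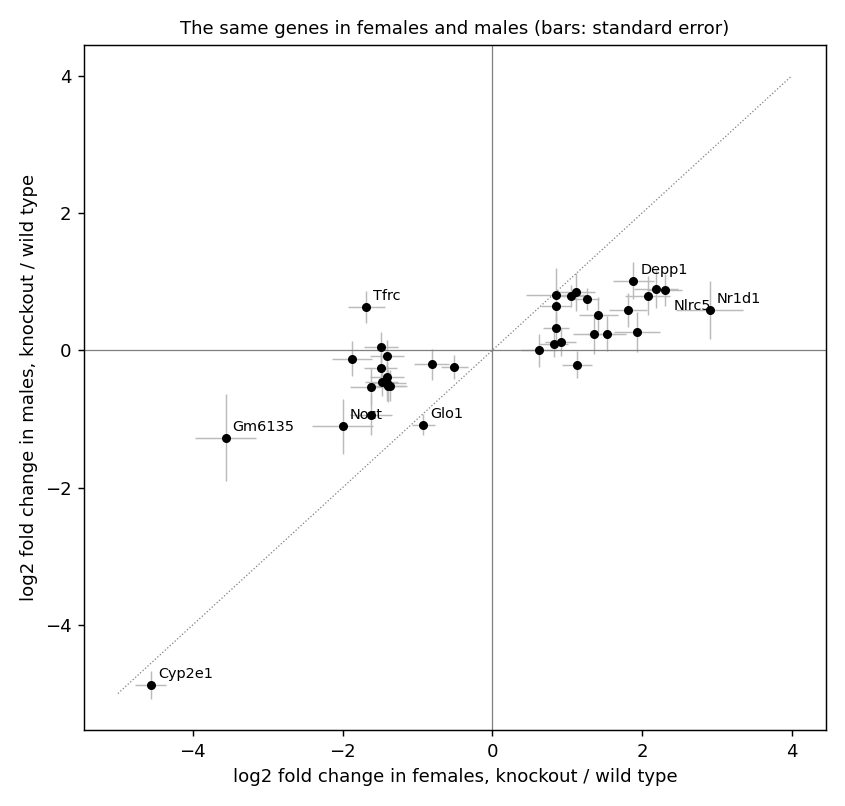
Log2 fold change in females (x axis) and in males (y axis) of 38 of the 40 genes called with each female library left out in turn (points, bars are standard errors, dotted line marks equal change). Most points lie nearer to 0 on the male axis than on the female axis, Cyp2e1 and Glo1 lie near the dotted line, and Tfrc lies on the other side of 0 in males. The genes were chosen by their female calls, and that choice alone favours larger changes on the female axis.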

How the data were processed

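Poly(A)-selected liver RNA was sequenced in 12 libraries, 3 in each of 4 groups of sex and line. The authors deposited raw counts per gene, whose values were checked to be whole numbers with totals that differ between libraries, together with gene positions (mm39), lengths and biotypes. HISAT2 2.0.5, DESeq2 and mm39 stand in the submitters' processing notes, which give them no role. How reads were counted, and whether by strand, was not found in the labels, so reads of overlapping genes on opposite strands cannot be told apart.

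Counts were fitted in R 4.3.3 with edgeR 4.0.16 (filterByExpr, TMM, 1 mean per group over all 12 libraries, glmQLFit and glmQLFTest, 8 residual degrees of freedom), which kept 14003 of 56748 genes holding 99.9% of counts. The biological coefficient of variation was 25.9%. Adjustment of p-values was by Benjamini and Hochberg, over all genes tested, with calls at 0.05. Standard errors were back-calculated from the F statistic and are approximate. The length slope is that of log2 CPM (prior count 2) on log2 gene length over genes of mean log2 CPM above 2. The trend removed was a natural spline of 4 degrees of freedom on log2 gene length in each library, entered as an offset. Alternatives were DESeq2 1.42.0, limma 3.58.1 (voom), no filter, the female libraries alone, the length slope as a covariate, a replicate block and leaving out each female library. The fits were also run on simulated counts, which had less spread and far fewer changed genes than these data. That run is therefore no check of the calls. No 2 female replicates of a group were alike within sampling noise (chi-square statistics of 16.1 to 81.4 for each degree of freedom). Same-numbered libraries did not deviate together in females.

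The members and the 53 gene lists were chosen with earlier results of these data known, so a list's count or median is a description. Named genes were Cyp2e1, the 15 largest changes each way in the stable set (mean log2 CPM of at least 1, symbols other than Gm with a number or Rik), up to 4 members of each list by adjusted p with the stable set first, the genes called in all 6 fits without a library and the 5 most abundant called each way. The rule takes 212 genes, and many are given only within counts or are not reported here. The set of 40 was added after the data were seen. Promoters were matched by symbol, for 23 of 30 chaperone genes.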

Additional observations from a re-analysis of the deposited data

How the results depend on the processing

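DESeq2 (5916 calls), no filter (5238), limma voom (5215), the female libraries alone (6272) and the length trend removed (4289) gave counts within 1.5 times of the 5116 female calls. With the length slope as a covariate 10 genes were called. The fit with a replicate block called 3365 genes, and 2206 with the block and the length trend removed. The replicate numbers do not pair the samples (correlation of deviations -0.22, -0.12 and -0.30 in females), so the block is no better design. Leaving out each library in turn gave 4 to 4227 calls, and with the length trend removed it was 3079, 45 or 1872 when wild type library 1, 2 or 3 was dropped, and 2726, 158 or 1928 when knockout library 1, 2 or 3 was. For the sex difference edgeR called 0 genes in the main fit, 1451 with no filter, 3 with the slope covariate and 0 to 1 with a library left out. DESeq2 called 218. The difference in length slope, 0.377, was 0.327 to 0.427 with a library left out and 0.112 over genes not called in females.

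With the slope as a covariate the change reversed for Apoc1 (0.085), Apoc3 (0.00656), Eef1a1 (0.0341), Fabp1 (0.213), Hsf1 (-0.19), Lect2 (0.16) and Hspd1 (-0.30). Without wild type replicate 3 and with the trend removed Fabp1 stood at 0.031, and without knockout replicate 1 Lect2 stood at 0.0401. H2-Ab1 ranged from -0.40 to 0.63 over the fits that left out a library (lowest without knockout replicate 1), and stood at -0.0962 without that library and with the trend removed. The causes were not tested. Count depth was not varied.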

Other observations

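Of 30 genes of glutathione S-transferases and glutathione synthesis 0 were higher and 14 lower with no length term, beside 17.7% and 18.8% of all genes, and 1 and 8 with the length trend removed, with medians of -0.56 and -0.11. Of 36 genes of protein entry into the ER and N-glycosylation 1 was higher and 19 lower, and 1 and 15 with the trend removed (medians -0.52 and -0.45). Of 27 flavin monooxygenases and carboxylesterases 0 were higher and 9 lower, and 0 and 5 (medians -0.41 and -0.26). Of 37 peroxisome genes 2 were higher and 12 lower with no length term, and 4 and 9 with the length trend removed, with medians of -0.39 and -0.19. Pex13, which docks the import machinery at the peroxisome membrane, was at 75.6, 95.5 and 97.6 CPM in wild type and at 37.8, 35.8 and 40.8 CPM in knockout livers (-1.23 ± 0.26), and Nudt12, a peroxisomal hydrolase that removes NAD caps from RNA, fell by 0.86 on the log2 scale. The groups were apart in both genes. Of 39 interferon response genes 3 were higher and 7 lower, and 3 and 2 with the trend removed. The interferon-inducible GTPase Gbp2 was at 2.60, 3.32 and 2.83 CPM in wild type and at 10.9, 3.84 and 7.12 CPM in knockout livers (1.32 ± 0.40), and without knockout replicate 1, the highest, it stood at 0.92 with no length term (adjusted p = 0.0966).

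Of 39 lysosome and autophagy genes 9 were higher and 10 lower, and of 25 apolipoprotein genes 5 were higher and 5 lower. Of 38 splicing regulators 9 were higher and 3 lower, and 5 and 4 with the trend removed. Beside these lists, 17.7% of all genes were higher and 18.8% lower, and 15.9% and 14.7% with the trend removed. The 19 markers of sinusoidal endothelium summed to 354 to 450 CPM in wild type and 421 to 577 CPM in knockout livers, with 5 of 19 higher and 1 lower with no length term and 2 and 0 with the trend removed. The 20 markers of stellate cells and fibroblasts summed to 777 to 880 CPM in wild type and 880 to 1030 CPM in knockout livers, with 4 of 18 tested higher and 2 lower. Erythroid markers summed to 442 to 1040 CPM in wild type and 241 to 603 CPM in knockout livers, with 1 of 6 tested higher.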
